A study of Homo sapiens with 12 samples.

Results

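The 9 genes described here encode the MHC class I presentation machinery and PD-L1: the heavy chains HLA-B, HLA-C, HLA-E and HLA-F, the light chain B2M, the peptide transporter subunit TAP1, the peptide-trimming protease ERAP1, the class I transactivator NLRC5, and CD274, which encodes PD-L1. They were chosen by symbol, and all 9 of them were found, each on 1 line, among the 60835 gene symbols of the deposited tables. Their mRNA was measured by poly(A) RNA sequencing in LNCaP, an androgen-sensitive human prostate cancer cell line. Cells carrying a short hairpin RNA against FOXA1 were set against a negative control for that knockdown, and cells carrying a short hairpin RNA against TRIM28 against a negative control of their own. Each of the 4 groups held 3 biological replicates, 12 libraries in all, and every library carried the same batch label. The pioneer factor FOXA1 opens chromatin in prostate epithelium. TRIM28 silences chromatin at sites where KRAB zinc finger proteins bring it. The labels name 1 hairpin treatment per target without its sequence, so an effect of the target and an off-target effect of a hairpin cannot be told apart.

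Class I molecules show peptides from inside the cell to CD8+ T cells. The proteasome cuts proteins into peptides, TAP1 and TAP2 carry them into the endoplasmic reticulum, ERAP1 trims them, and the loading complex places them on a heavy chain paired with B2M. Interferon gamma, through IRF1 and NLRC5, raises transcription of most of these genes and of CD274, whose product PD-L1 restrains T cells through the receptor PD-1. Prostate tumours are known for low class I expression.

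FOXA1 mRNA was at 29.5%, 28.7% and 29.2% of the mean of its controls in the 3 FOXA1 knockdown libraries, and TRIM28 mRNA was at 31.9%, 28.3% and 13.99% of the mean of its controls in the 3 TRIM28 knockdown libraries. FOXA1 was also at 47.2%, 42.6% and 70.1% of the control mean in the TRIM28 knockdown libraries. Libraries held between 12256092 and 15152890 counts. The third TRIM28 knockdown library was unlike the other two: the chi-square per degree of freedom over genes was 25.8 and 23.3 between replicate 3 and replicates 1 and 2, and between 3.12 and 6.31 in the other pairs of replicates. Summed over 10 stromal and endothelial markers, that library had 468 CPM (counts scaled to library size), led by COL3A1 with 185 CPM, while replicates 1 and 2 had 41.3 and 51.9 CPM and the 3 TRIM28 control libraries had between 35.3 and 42.2 CPM. The endothelial marker VWF had 9.33 CPM in replicate 3 and 10.1 CPM in each of replicates 1 and 2. PECAM1 had 0.32 CPM against 0.37 and 0.54 CPM, and CDH5 0.88 CPM against 0.15 and 0.0 CPM. The TRIM28 values of the 9 genes and the TRIM28 counts of the lists are therefore also given without replicate 3 of that knockdown. So are the TRIM28 fold changes of most other named genes. Prostate luminal markers, 12 genes with KLK2, KLK3 and keratins, were all expressed, summing to between 3305 and 3362 CPM in the FOXA1 knockdown and 5175 to 5231 CPM in its control, and to between 3149 and 3473 CPM in the TRIM28 knockdown and 5140 to 5212 CPM in its control. After FOXA1 knockdown 5 of the 12 rose and 6 fell, and after TRIM28 knockdown 0 rose and 8 fell, or 0 and 11 without replicate 3. Over all genes tested 26.1% rose and 26.3% fell after FOXA1 knockdown, and 13.3% rose and 13.3% fell after TRIM28 knockdown. Without replicate 3 of the latter, 3333 of 15475 genes rose and 3633 fell. Luminal markers moved both ways in that replicate. KRT8 had 90.25 CPM there against 22.55 and 24.74 CPM in replicates 1 and 2, and KLK2 139.8 CPM against 172.1 and 186.0 CPM. The 16 leukocyte markers, among them PTPRC and the T cell genes CD3D and CD3E, summed to between 7.75 and 12.4 CPM in every library, and none of the 3 that could be tested changed in either knockdown. Bulk RNA cannot tell fewer cells of a type from less RNA per cell.

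Promoter sequences of 5 of the genes are shown because they differ in which of a few exact motif forms they hold and in how far their mRNA moved. Each gives the 250 bases before a RefSeq transcription start (GRCh38.p14), read in the direction of the gene; capitals mark matches on either strand to CCAAT, the core bound by NF-Y, to the interferon-stimulated response element in the form of 2 GAAA blocks with any 2 bases between them, or to the palindromic NF-kB site of 11 bases. They lie at chr6:31357180-31357429 on the minus strand for HLA-B, chr6:31272093-31272342 on the minus strand for HLA-C, chr15:44711267-44711516 on the plus strand for B2M, chr6:32853705-32853954 on the minus strand for TAP1 and chr9:5450292-5450541 on the plus strand for CD274.
HLA-B: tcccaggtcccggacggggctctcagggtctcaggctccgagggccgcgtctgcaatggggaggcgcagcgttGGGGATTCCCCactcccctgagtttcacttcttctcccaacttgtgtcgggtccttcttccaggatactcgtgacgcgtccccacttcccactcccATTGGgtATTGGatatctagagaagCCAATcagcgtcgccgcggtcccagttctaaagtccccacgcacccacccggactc
HLA-C: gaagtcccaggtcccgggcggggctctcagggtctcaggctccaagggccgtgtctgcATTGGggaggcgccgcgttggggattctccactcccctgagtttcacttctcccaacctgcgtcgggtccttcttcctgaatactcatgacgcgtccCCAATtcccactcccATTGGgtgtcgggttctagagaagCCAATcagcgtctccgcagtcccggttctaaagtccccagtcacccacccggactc
B2M: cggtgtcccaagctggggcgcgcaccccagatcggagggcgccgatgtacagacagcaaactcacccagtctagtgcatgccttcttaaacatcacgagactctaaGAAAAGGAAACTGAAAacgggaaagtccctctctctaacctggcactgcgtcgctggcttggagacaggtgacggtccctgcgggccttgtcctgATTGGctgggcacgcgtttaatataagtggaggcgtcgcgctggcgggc
TAP1: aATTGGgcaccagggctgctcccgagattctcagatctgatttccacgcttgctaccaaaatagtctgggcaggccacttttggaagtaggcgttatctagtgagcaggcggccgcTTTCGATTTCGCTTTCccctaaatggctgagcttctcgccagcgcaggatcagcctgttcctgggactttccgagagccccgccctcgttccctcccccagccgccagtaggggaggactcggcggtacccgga
CD274: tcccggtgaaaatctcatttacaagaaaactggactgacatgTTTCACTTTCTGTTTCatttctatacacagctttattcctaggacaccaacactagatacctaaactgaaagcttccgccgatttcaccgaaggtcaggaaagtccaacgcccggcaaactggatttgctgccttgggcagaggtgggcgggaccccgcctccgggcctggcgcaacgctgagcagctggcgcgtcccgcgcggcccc

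RefSeq windows of 300 bases, 250 before and 50 after the start, were found for 7 of the 9 genes, with a second window each for TAP1 and ERAP1. CCAAT stood in 6 of the 7 genes (HLA-B, HLA-C, HLA-F, B2M, TAP1 and ERAP1) and in 34.6% of the 35116 windows of all genes. The response element in this exact form stood in 5 of the 7 (HLA-F, B2M, TAP1, ERAP1 and CD274) and in 3.57% of all windows. In CD274, TAP1 and B2M 2 overlapping copies of it made 1 run, beginning 208, 134 and 144 bases before the start, while in ERAP1 the match lay after the start. The NF-kB palindrome was matched in HLA-B, beginning 177 bases before the start, and in 0.0313% of all windows. Another NF-kB form, GGGANTTCC, was matched in none of the 7 and in 1.85% of all windows. The TAP1 sequence shown holds gggactttcc and that of B2M its reverse complement, which are a base longer than this form and were not counted. The STAT form TTCNNNGAA was matched in TAP1 and CD274 and in 7.66% of all windows. In TAP1 the match lay in the second window, not in the sequence shown. The forkhead forms TGTTTAC and TATTTAC, in 3.42% and 2.67% of all windows, and the CRE forms TGACGTCA, in 1.85%, and TGACGCAA, in 0.513%, were matched in none of the 7 genes. Only these exact forms were searched for, so a gene without a match was not shown to lack such an element. The HLA-B and HLA-C sequences shown both hold tttcacttct, which the response element form does not match. A match is a stretch of letters and no measured binding site.

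Per length of transcript, as deposited FPKM (fragments scaled to transcript length and library size), the order of the genes was the same in all 4 groups. B2M was highest at 138 ± 8.4 FPKM in the FOXA1 knockdown and 128 ± 3.1 FPKM in its control, and at 134 ± 12 FPKM in the TRIM28 knockdown and 123 ± 3.2 FPKM in its control (SD, n = 3 for each group, here and below). HLA-C followed at 90.0 ± 1.6 FPKM against 77.9 ± 6.4 FPKM in the FOXA1 pair and at 89.1 ± 5.8 FPKM against 77.8 ± 6.3 FPKM in the TRIM28 pair. HLA-E and HLA-B were several-fold lower, and TAP1 and ERAP1 lower again. HLA-F, CD274 and NLRC5 averaged below 1 FPKM in every group, so the transactivator of class I genes had the lowest level of the 9. Neighbours in this order were separated in all libraries of a group, except HLA-F and CD274 in both knockdowns, and CD274 and NLRC5 in both controls and in the TRIM28 knockdown, whose libraries overlapped.

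HLA-C thus made up most of the summed heavy-chain FPKM of HLA-B, HLA-C, HLA-E and HLA-F. Its share was 77.2% ± 0.28 in the FOXA1 knockdown and 80.4% ± 0.45 in its control, and 75.0% ± 0.99 in the TRIM28 knockdown and 80.1% ± 0.95 in its control. HLA-E took 14.1% ± 0.32 of the sum in the FOXA1 knockdown against 11.7% ± 0.12 in its control, and 14.4% ± 0.91 in the TRIM28 knockdown against 11.8% ± 0.52 in its control. The ratio of B2M FPKM to that sum was 1.19 ± 0.085 in the FOXA1 knockdown and 1.33 ± 0.14 in its control, and 1.13 ± 0.041 in the TRIM28 knockdown and 1.27 ± 0.081 in its control. These shares were not tested, and reads of near-identical heavy-chain genes may have been split between them by the counting, which is not described in the sources used here.

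**Figure D1:**
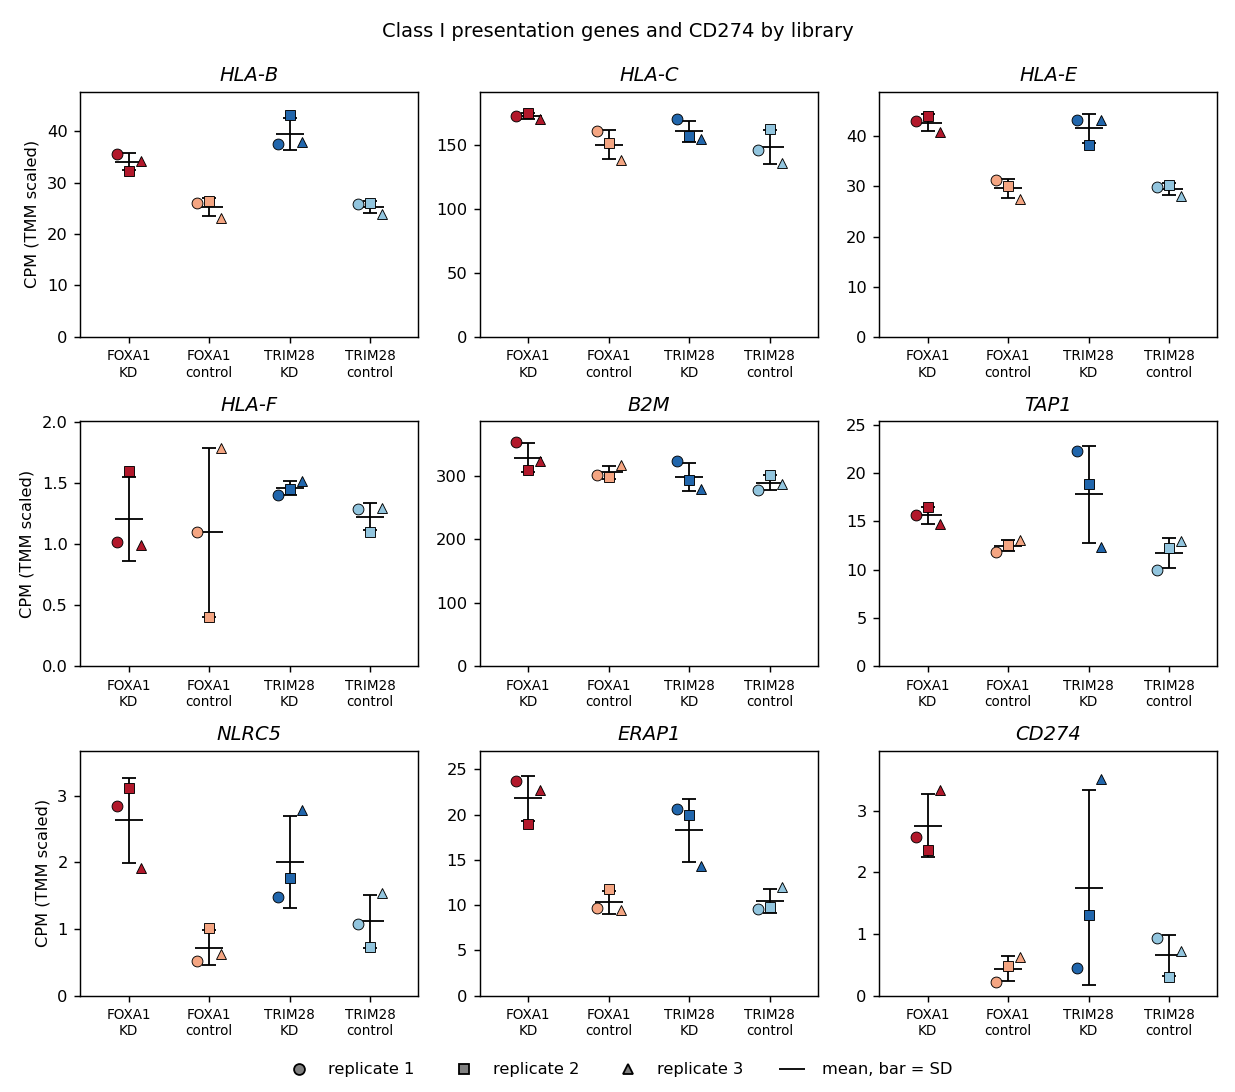
Level of each of the 9 genes in every library, as TMM-scaled CPM on linear axes that start at 0, with a panel per gene; point shapes mark replicates 1 to 3, the horizontal line is the mean and the bar the SD (n = 3). HLA-B, HLA-E and ERAP1 lie higher in all libraries of both knockdowns than in their controls, B2M overlaps its controls in both, and CD274 in the TRIM28 knockdown spreads between 0.44 and 3.51 CPM.

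Among the heavy chains, which bind the peptide and span the membrane, HLA-B and HLA-E rose in both knockdowns, HLA-C rose in the FOXA1 knockdown, and HLA-F did not pass the test in either. HLA-B, a classical class I gene on chromosome 6 (31353872 to 31367067, minus strand, in the deposited coordinates), had 35.6, 32.3 and 34.2 CPM in the FOXA1 knockdown and 26.0, 26.5 and 23.2 CPM in its control. Every knockdown library lay above every control library, with a log2 fold change of 0.43 (SE 0.09, edgeR adjusted p = 0.00014). After TRIM28 knockdown HLA-B had 37.4, 43.1 and 38.0 CPM against 25.8, 26.0 and 23.8 CPM in its control. Again no libraries overlapped, and the log2 fold change was 0.65 (SE 0.11, adjusted p = 0.0024), or 0.68 without replicate 3 of the knockdown. In GENCODE release 29 MIR6891 and DHFRP2 overlap the deposited HLA-B interval on the same strand, and AL671883.2 and AL671883.3 on the opposite strand. The deposited FPKM implied a length of 3547 bases for HLA-B, 2548 for HLA-E and 1880 for HLA-C. The FPKM level and share of HLA-B depend on that length.

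HLA-E, a non-classical heavy chain that presents leader peptides to the NKG2 receptors of natural killer cells, had 43.1, 44.1 and 40.8 CPM in the FOXA1 knockdown and 31.2, 30.1 and 27.4 CPM in its control. The groups did not overlap, and the log2 fold change was 0.52 (SE 0.08, adjusted p = 2.48e-06). With TRIM28 reduced, HLA-E had 43.2, 38.3 and 43.2 CPM against 29.9, 30.3 and 28.1 CPM in its control, likewise without overlap. Its log2 fold change there was 0.50 (SE 0.10, adjusted p = 0.0059), and 0.47 without replicate 3. No other annotated gene overlaps HLA-E in GENCODE release 29.

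HLA-C, the most abundant of these heavy chains and a ligand of killer-cell immunoglobulin-like receptors, had 172, 175 and 170 CPM in the FOXA1 knockdown and 161, 151 and 138 CPM in its control. The groups were separated by a small gap, with a log2 fold change of 0.20 (SE 0.05, adjusted p = 0.0034). A test against a minimum fold of 1.2 did not call it (adjusted p = 0.925). In the deposited coordinates HLA-C (31268749 to 31272130) and HLA-B (31353872 to 31367067) do not overlap. The HLA-B gene of GENCODE release 29 (31269491 to 31357188) does extend over HLA-C on the same strand. Which annotation the counting used is not given in the sources used here. After TRIM28 knockdown it had 170, 157 and 154 CPM against 146, 162 and 135 CPM in its control; the libraries overlapped, and the log2 fold change of 0.12 (95% interval -0.08 to 0.33, adjusted p = 0.36) did not pass the test, nor did that without replicate 3 of the knockdown (0.15, adjusted p = 0.097).

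HLA-F, a non-classical heavy chain known to reach the surface partly without peptide, was near the limit of detection, with 57 or fewer counts summed over any group. It had 1.02, 1.60 and 0.99 CPM in the FOXA1 knockdown and 1.10, 0.41 and 1.79 CPM in its control, with wide overlap and a log2 fold change of 0.15 (95% interval -0.73 to 1.02, adjusted p = 0.80). The TRIM28 knockdown libraries had 1.40, 1.46 and 1.51 CPM against 1.29, 1.10 and 1.29 CPM in its control. These values did not overlap, but the log2 fold change of 0.25 (95% interval -0.46 to 0.97, adjusted p = 0.60) did not pass the test, nor did that without replicate 3 (0.22, adjusted p = 0.71). HLA-F-AS1 lies on the opposite strand, and the strand setting of the counting is not given in the sources used here.

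B2M, the light chain that all class I heavy chains need to reach the surface, did not pass the test in either knockdown. It had 353, 309 and 322 CPM in the FOXA1 knockdown and 301, 298 and 317 CPM in its control, and the groups overlapped. The log2 fold change was 0.10 (SE 0.05, 95% interval 0.00 to 0.20, adjusted p = 0.093), so a rise of more than 0.20 lies outside the interval; without replicate 2 of the knockdown it was 0.15 (adjusted p = 0.021), and without replicate 3 of the control 0.12 (adjusted p = 0.042). After TRIM28 knockdown B2M had 322, 293 and 279 CPM against 278, 302 and 287 CPM in its control. The log2 fold change was 0.05 (95% interval -0.14 to 0.24, adjusted p = 0.70), and 0.09 without replicate 3 (adjusted p = 0.26).

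The peptide-processing genes TAP1 and ERAP1 were higher in both knockdowns in most libraries, ERAP1 by the larger factor. ERAP1, the endoplasmic reticulum aminopeptidase that trims peptides to the length class I accepts, lies on chromosome 5 (96760810 to 96808100, minus strand). It had 23.7, 19.0 and 22.8 CPM in the FOXA1 knockdown and 9.67, 11.8 and 9.48 CPM in its control. The groups were far apart, with a log2 fold change of 1.07 (SE 0.12, adjusted p = 1.86e-08), that is 2.10-fold. With TRIM28 reduced, ERAP1 had 20.6, 19.9 and 14.3 CPM against 9.52, 9.80 and 12.0 CPM in its control. Replicate 3 was the lowest knockdown library yet above all controls, and the log2 fold change was 0.81 (SE 0.18, adjusted p = 0.0084). It was 0.96 without that library. The call was lost without replicate 1 of the control (0.73, adjusted p = 0.057) or replicate 2 of the control (0.77, adjusted p = 0.054). CAST overlaps ERAP1 on the opposite strand.

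TAP1, a subunit of the transporter that moves peptides into the endoplasmic reticulum, had 15.7, 16.5 and 14.7 CPM in the FOXA1 knockdown and 11.9, 12.6 and 13.1 CPM in its control. The groups did not overlap, and the log2 fold change was 0.32 (SE 0.12, adjusted p = 0.024). Settings in which the call did not hold included leaving out replicate 1 of the control (adjusted p = 0.092) or replicate 2 of the knockdown (0.076). DESeq2 (adjusted p = 0.092) was another. TAP1 in the TRIM28 knockdown had 22.3, 18.8 and 12.4 CPM against 9.95, 12.2 and 13.0 CPM in its control. Replicates 1 and 2 lay well above the controls and replicate 3 among them, so the log2 fold change of 0.61 (SE 0.21, adjusted p = 0.058) did not pass the test, and without replicate 3 it was 0.82 (SE 0.14, adjusted p = 1.24e-05). PSMB9 and PSMB8-AS1 overlap TAP1 on the opposite strand.

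TAP2, the other subunit of the transporter, was singled out after its values were seen. It had 9.09, 6.48 and 9.78 CPM in the FOXA1 knockdown and 11.7, 12.9 and 12.4 CPM in its control. Here the order was the opposite of that of TAP1, with a log2 fold change of -0.55 (SE 0.15, adjusted p = 0.0025). TAP2 in the TRIM28 knockdown had 14.96, 12.0 and 10.9 CPM against 13.2, 12.8 and 12.8 CPM in its control, and its log2 fold change of -0.03 (adjusted p = 0.90) did not pass the test, nor did that of 0.06 without replicate 3 (adjusted p = 0.79).

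NLRC5, which drives class I transcription through the RFX and NF-Y factors at the promoter, rose in the FOXA1 knockdown at a very low level. It lies on chromosome 16 (56989485 to 57083531, plus strand) and had 2.85, 3.12 and 1.91 CPM in the FOXA1 knockdown and 0.51, 1.01 and 0.62 CPM in its control, or 110 counts against 30 counts over the 3 libraries. All knockdown libraries lay above all controls, and the log2 fold change was 1.84 (SE 0.36, adjusted p = 7.48e-05), that is 3.58-fold. The TRIM28 knockdown libraries had 1.47, 1.76 and 2.79 CPM against 1.07, 0.73 and 1.53 CPM in its control. The ranges overlapped at replicate 1, and the log2 fold change was 0.86 (95% interval -0.03 to 1.74, adjusted p = 0.14), or 0.55 without replicate 3 (adjusted p = 0.33).

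CD274 had the largest fold change of the 9 genes in the FOXA1 knockdown. The gene lies on chromosome 9 (5450503 to 5470566, plus strand), with no overlapping gene in GENCODE release 29, and had 38, 31 and 47 counts in the FOXA1 knockdown and 3, 7 and 8 counts in its control. Scaled to depth these were 2.58, 2.36 and 3.33 CPM in the knockdown against 0.22, 0.47 and 0.62 CPM in the control. The lowest knockdown library stood well above the highest control library, with a log2 fold change of 2.63 (SE 0.39, adjusted p = 1.37e-06), that is 6.20-fold, and between 2.32 and 2.93 when any 1 library was left out. The level in the knockdown, 0.75 ± 0.14 FPKM, stayed well below that of the heavy chains HLA-B, HLA-C and HLA-E.

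The CD274 levels of the TRIM28 knockdown libraries disagreed. They had 6, 17 and 44 counts against 13, 4 and 9 counts in the control, or 0.44, 1.30 and 3.51 CPM against 0.93, 0.29 and 0.73 CPM. Replicate 1 lay inside the control range, replicate 2 somewhat above it, and replicate 3 far above. The log2 fold change of 1.41 (SE 0.71, 95% interval -0.17 to 2.99, adjusted p = 0.17) did not pass the test, and without replicate 3 it was 0.42 (adjusted p = 0.60). Replicate 3 was also the library with 468 CPM summed over stromal and endothelial markers and the lowest TRIM28. Its FOXA1 was at 70.1% of the control mean, against 47.2% and 42.6% in replicates 1 and 2. The part of any of these in its CD274 level was not tested.

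**Figure D2:**
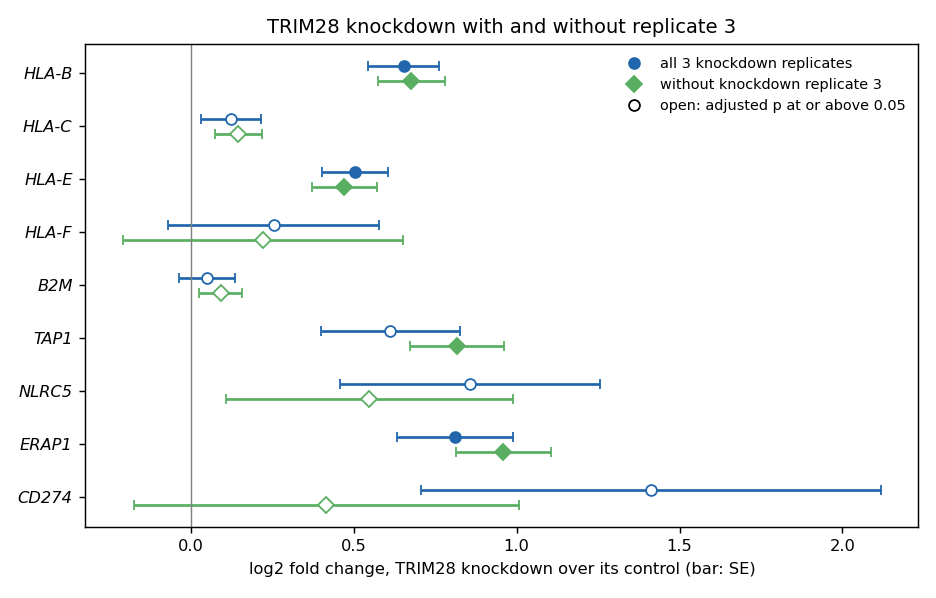
log2 fold change of the 9 genes in the TRIM28 knockdown over its control, with all 3 knockdown replicates (circles) and without knockdown replicate 3 (diamonds); bars are SE and open symbols mark an adjusted p at or above 0.05. HLA-B, HLA-E and ERAP1 keep their calls, TAP1 moves to 0.82 and passes the test, and CD274 moves to 0.42.

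Counted together, 7 of the 9 genes rose and 0 fell after FOXA1 knockdown, where 52.4% of the 14953 genes tested changed, 26.1% rising and 26.3% falling. All knockdown libraries lay above all controls for the same 7 genes, and for 29.5% of all genes tested. The median log2 fold change was 0.43 over the 9 genes and -0.02 over all genes tested. In the TRIM28 knockdown 3 of the 9 (HLA-B, HLA-E and ERAP1) rose and 0 fell, where 26.7% of 14981 genes changed, 13.3% in each direction, and the medians were 0.61 and 0.00. Libraries were separated upwards for those 3 and HLA-F, 4 of the 9, and for 21.6% of all genes tested. Without replicate 3 of the knockdown, TAP1 joined HLA-B, HLA-E and ERAP1, so that 4 of the 9 rose, with a median of 0.47. Of all 15475 genes tested in that setting 3333 rose and 3633 fell, 6966 in all. CD274 and NLRC5 entered the FOXA1 test through the knockdown libraries: all 3 of these reached the cutoff of the filter on low counts, 0.71 CPM, against 0 of the 3 control libraries for CD274 and 1 of the 3 for NLRC5. Without those genes 5 of the other 7 rose in the FOXA1 knockdown and 3 of 7 in the TRIM28 knockdown. Summing HLA-B, HLA-C, HLA-E and HLA-F before the test, so that a split of reads between these 4 no longer entered, gave a log2 fold change of 0.28 (adjusted p = 4.3e-05) in the FOXA1 knockdown and 0.26 (adjusted p = 0.046) in the TRIM28 knockdown.

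**Figure D3:**
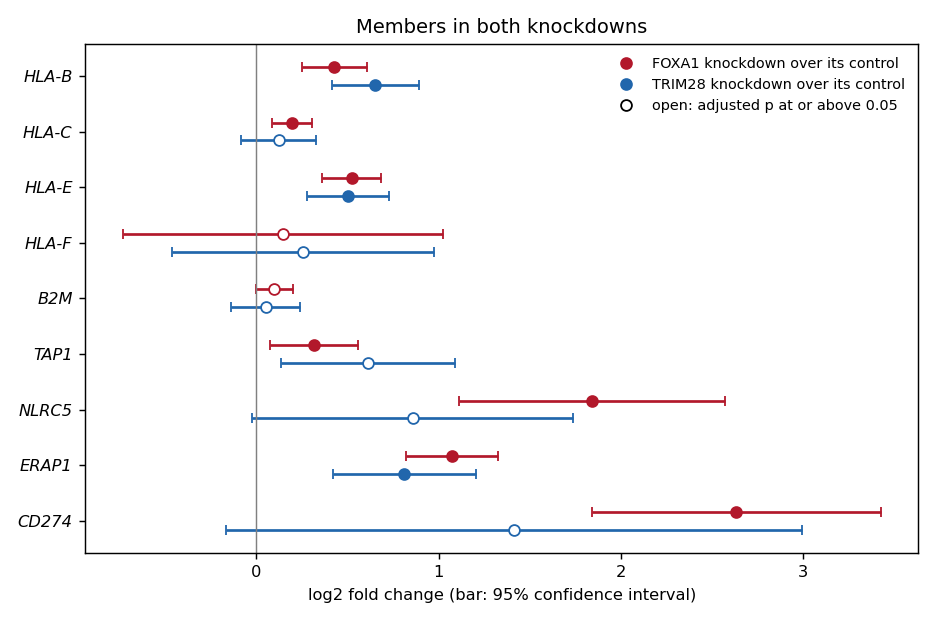
log2 fold change of the 9 genes in the FOXA1 knockdown (upper marker of each pair) and the TRIM28 knockdown (lower marker), each over its own control; bars are 95% confidence intervals and open symbols mark an adjusted p at or above 0.05. The intervals of both knockdowns overlap for every gene, and those of CD274 and NLRC5 are the widest along with that of HLA-F.

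The difference between the FOXA1 effect and the TRIM28 effect was tested over all 12 libraries and was called for 0 of the 9 genes, against 10.6% of the 15921 genes tested (5.98% higher and 4.59% lower); 0 of the 9 had an unadjusted p under 0.05. For CD274 it was 1.23 on the log2 scale (95% interval -0.64 to 3.10, adjusted p = 0.43), for NLRC5 1.00 (-0.16 to 2.16, adjusted p = 0.28), and for ERAP1 0.27 (-0.19 to 0.74). For TAP1 it was -0.29 (-0.80 to 0.22) and for HLA-B -0.21 (-0.49 to 0.06). The intervals were narrower for HLA-E (-0.23 to 0.29), HLA-C (-0.14 to 0.31) and B2M (-0.15 to 0.27). They leave room for unequal effects in either direction, so the knockdowns were not shown to act alike. Without replicate 3 of the TRIM28 knockdown the difference passed the test for CD274 (2.23, adjusted p = 0.020) and for TAP1 (-0.49, adjusted p = 0.04996).

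Between the 2 control groups, 8 of the 9 genes could be tested, CD274 being below the filter. None differed, and their log2 fold changes, TRIM28 control over FOXA1 control, lay between -0.09 and 0.61, the highest being that of NLRC5 (95% interval -0.31 to 1.54). Of all 14839 genes tested there, edgeR called 0, or 0.0%, with 635 at an unadjusted p under 0.05, and DESeq2 also called 0. For none of the 8 did all TRIM28 control libraries lie above all FOXA1 controls, as they did for 4.41% of all genes tested.

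Among 24 other genes of peptide supply and loading (proteasome activators and immunoproteasome subunits, proteases, transporter and chaperones), 9 of 23 tested rose and 7 fell in the FOXA1 knockdown, with a median log2 fold change of 0.02. Over all genes tested 26.1% rose and 26.3% fell there, the shares to set beside this list and those below. SPPL2A, an intramembrane protease, averaged 158 ± 2.1 CPM in the knockdown and 97.5 ± 4.9 CPM in its control (log2 fold change 0.70, adjusted p = 4.97e-12). TPP2, a cytosolic peptidase that trims peptides after the proteasome, averaged 54.5 ± 4.0 CPM and 82.3 ± 4.1 CPM (-0.60, adjusted p = 1.04e-08). PSME3, a proteasome activator subunit, rose by 0.34 and SEC61A1, the core of the translocation channel, by 0.26. PSMB9, an immunoproteasome subunit singled out after its values were seen, averaged 1.00 ± 0.015 CPM against 0.33 ± 0.20 CPM (1.54, adjusted p = 0.012), a call lost without replicate 1 of the control (adjusted p = 0.081) and with DESeq2 (0.088). No control library of PSMB9 reached the cutoff of the filter on low counts, so it entered the test through the knockdown libraries.

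In the TRIM28 knockdown 5 of 22 tested genes of peptide supply and loading rose and 3 fell, with a median of 0.09; without replicate 3 of the knockdown 7 of 23 rose and 5 fell, with a median of 0.06. Over all genes tested, beside this list and those below, 13.3% rose and 13.3% fell. Without replicate 3, 3333 of 15475 genes rose and 3633 fell. CALR, the chaperone calreticulin of the loading complex, averaged 1239 ± 103 CPM in the knockdown and 1809 ± 4.9 CPM in its control (-0.54, adjusted p = 0.0017, and -0.61 without replicate 3). THOP1, a cytosolic oligopeptidase that degrades antigenic peptides, averaged 79.4 ± 14 CPM and 128 ± 2.3 CPM (-0.68, adjusted p = 0.0027, and -0.83 without replicate 3). The chaperone gene HSPA5 and the aminopeptidase gene LNPEP each rose by 0.33, and by 0.33 and 0.35 without replicate 3. The call for HSPA5 was lost without replicate 1 of the control (adjusted p = 0.055), and that for LNPEP without replicate 1 or 2 of the control or replicate 2 of the knockdown (adjusted p up to 0.10). SPPL2A rose by 0.30 (adjusted p = 0.021), a call lost without any 1 of the controls or replicate 2 of the knockdown (adjusted p up to 0.095). In the FOXA1 knockdown CALR fell by 0.11 (adjusted p = 0.021), THOP1 fell by 0.14 (0.033) and HSPA5 rose by 0.13 (0.0076). Each of those FOXA1 calls was lost without at least 1 library.

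Of 18 other class I-like genes and ligands of natural killer cell receptors, 5 of 11 tested rose and 2 fell in the FOXA1 knockdown (median 0.39), and 4 of 10 rose and 1 fell in the TRIM28 knockdown with or without its replicate 3 (median 0.36 with it and 0.33 without). HFE, a class I-like regulator of iron uptake that also pairs with B2M, averaged 3.19 ± 0.61 CPM in the FOXA1 knockdown and 0.87 ± 0.32 CPM in its control (1.86, adjusted p = 2.02e-05), and 3.81 ± 1.1 CPM in the TRIM28 knockdown and 0.93 ± 0.59 CPM in its control (2.02, adjusted p = 0.012, lost without replicate 2 of the knockdown at 0.051, and 2.23 without replicate 3). RAET1L, a ligand of the NKG2D receptor, averaged 2.42 ± 0.46 CPM in the FOXA1 knockdown and 0.10 ± 0.087 CPM in its control (4.51, adjusted p = 5.0e-08), a fold that rests on very few control reads, the gene having passed the filter through the knockdown libraries. AZGP1, a secreted class I-like protein, averaged 45.3 ± 0.86 CPM in the FOXA1 knockdown and 68.7 ± 2.2 CPM in its control (-0.60, adjusted p = 7.71e-09), and fell by 0.48 in the TRIM28 knockdown (adjusted p = 0.025, lost without any 1 of its controls at up to 0.091), and by 0.34 without replicate 3. MR1, which presents vitamin metabolites to MAIT cells, averaged 6.74 ± 2.3 CPM in the TRIM28 knockdown and 2.88 ± 1.2 CPM in its control (1.23, adjusted p = 0.027, lost without replicate 1 or 3 of the control or replicate 1 or 2 of the knockdown at up to 0.12, and 1.48 without replicate 3).

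Regulators of class I and PD-L1 transcription moved in both directions: 14 of 35 tested rose and 7 fell in the FOXA1 knockdown (median 0.12), and 6 of 35 rose and 4 fell in the TRIM28 knockdown (median 0.03), or 7 and 9 without its replicate 3 (median 0.08). All genes tested also moved both ways, 26.1% rising and 26.3% falling in the FOXA1 knockdown, and 13.3% each way in the TRIM28 knockdown. IFNGR1, a chain of the interferon gamma receptor, averaged 60.4 ± 3.8 CPM in the FOXA1 knockdown and 35.5 ± 1.8 CPM in its control (0.76, adjusted p = 7.71e-10), and rose by 0.33 in the TRIM28 knockdown (adjusted p = 0.028), a call lost without any 1 of its controls or without replicate 1 or 2 of the knockdown (adjusted p up to 0.11). IFNAR1, a chain of the type I interferon receptor, averaged 131 ± 3.8 CPM against 88.8 ± 4.8 CPM in the FOXA1 pair (0.56, adjusted p = 1.47e-09) and 132 ± 6.2 CPM against 90.7 ± 2.8 CPM in the TRIM28 pair (0.54, adjusted p = 0.0017, and 0.58 without replicate 3). The partner chains of both receptors, named after their values were seen, were less uniform: IFNGR2 rose by 0.59 in the FOXA1 knockdown (adjusted p = 0.00039) and had 0.47 in the TRIM28 knockdown (adjusted p = 0.21), while IFNAR2 had -0.18 (adjusted p = 0.72) in the FOXA1 knockdown and 0.30 (adjusted p = 0.65) in the TRIM28 knockdown. IRF1, looked up after the calls were known because it carries the interferon signal to these promoters, did not pass the test, with log2 fold changes of -0.21 (adjusted p = 0.38) in the FOXA1 knockdown and 0.14 (adjusted p = 0.67) in the TRIM28 knockdown.

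MYC, a transcription factor reported to bind the CD274 promoter, averaged 138 ± 6.0 CPM in the FOXA1 knockdown and 271 ± 8.7 CPM in its control (-0.98, adjusted p = 6.06e-16), and 178 ± 11 CPM in the TRIM28 knockdown and 264 ± 7.3 CPM in its control (-0.56, adjusted p = 0.0012, and -0.61 without replicate 3). JUN, an AP-1 subunit, averaged 134 ± 4.9 CPM in the FOXA1 knockdown and 237 ± 23 CPM in its control (-0.83, adjusted p = 3.12e-12), which did not pass the test when all 12 libraries were fitted together (-0.82, SE 0.39, adjusted p = 0.14). In the TRIM28 knockdown EED, a subunit of the Polycomb complex that places H3K27 methylation, rose by 0.63 with or without replicate 3 (adjusted p = 0.0041 with it), and NFYC, a subunit of the CCAAT-binding factor NF-Y, fell by 0.64 (adjusted p = 0.0049), and by 0.74 without replicate 3. In the FOXA1 knockdown EED rose by 0.41 (edgeR adjusted p = 0.0010) and NFYC fell by 0.57 (adjusted p = 9.21e-07). Neither difference of effects passed the test (adjusted p = 0.43 and 0.79).

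For partners of PD-L1 and other checkpoint ligands, 10 of 27 tested rose and 6 fell in the FOXA1 knockdown (median 0.11), and 3 of 26 rose and 1 fell in the TRIM28 knockdown (median 0.19), or 6 and 4 without its replicate 3 (median 0.16). CUL3, the scaffold of the ubiquitin ligase that targets PD-L1 for degradation through SPOP, averaged 108 ± 3.8 CPM in the FOXA1 knockdown and 45.7 ± 1.1 CPM in its control (1.23, adjusted p = 3.62e-16), and 91.6 ± 7.3 CPM in the TRIM28 knockdown and 49.7 ± 4.9 CPM in its control (0.89, adjusted p = 0.00064, and 0.95 without replicate 3). GSK3B, a kinase that marks PD-L1 for degradation, rose by 0.57 in the FOXA1 knockdown and by 0.60 in the TRIM28 knockdown, or 0.59 without its replicate 3. B4GALT1, a galactosyltransferase of N-glycans, rose by 0.79 in the FOXA1 knockdown and CMTM4, a membrane protein that stabilises PD-L1, fell by 0.57. CEACAM1, an inhibitory adhesion molecule, averaged 2.00 ± 0.68 CPM in the TRIM28 knockdown and 0.30 ± 0.093 CPM in its control (2.70, adjusted p = 0.0029, and also 2.70 without replicate 3); its controls lay under the filter cutoff of 0.79 CPM, so it entered the test through the knockdown libraries. PVR, the ligand of TIGIT, fell there by 0.37 with or without replicate 3, a call lost without any 1 of the controls (adjusted p up to 0.061). In the FOXA1 knockdown CEACAM1 rose by 2.27 (edgeR adjusted p = 6.14e-05) from 0.45 ± 0.23 CPM in the control. These controls too lay under the filter cutoff, 0.71 CPM in this pair, so CEACAM1 again entered the test through the knockdown libraries. PVR fell by 0.30 in the FOXA1 knockdown (adjusted p = 0.00064). Neither difference of effects passed the test (adjusted p = 0.76 and 0.69).

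**Figure D4:**
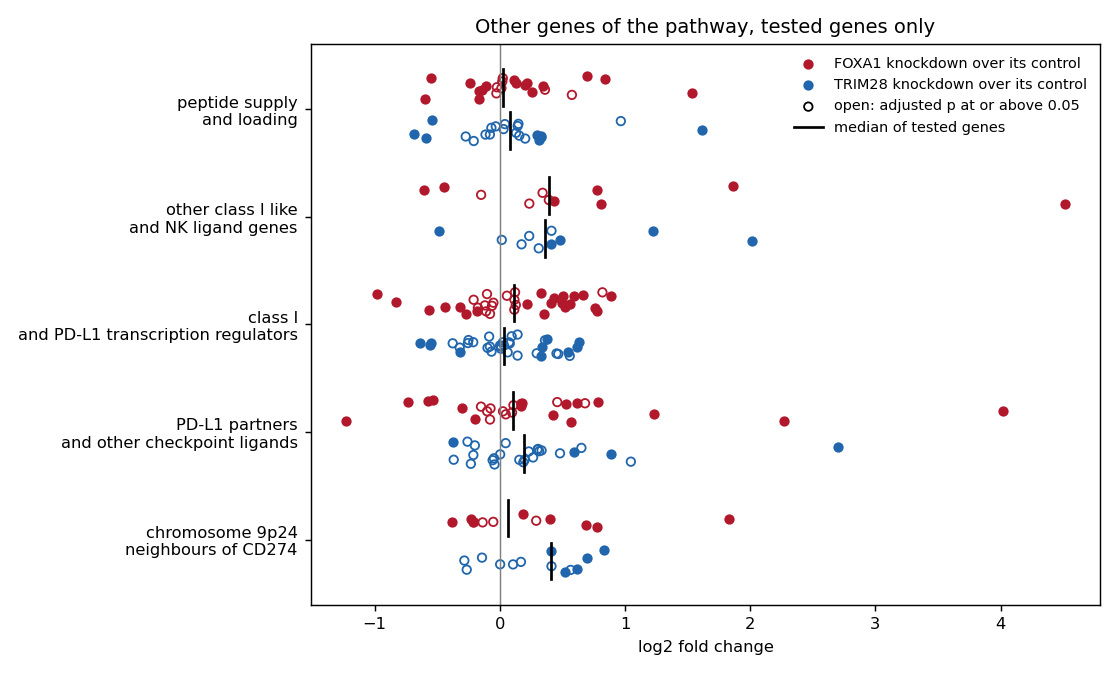
log2 fold change of the tested genes of each of 5 lists of pathway genes, with the FOXA1 knockdown above the TRIM28 knockdown in each list; open symbols mark an adjusted p at or above 0.05 and the vertical bar is the median of the tested genes. Most genes of every list lie within 1 log2 unit of 0, and called genes lie on both sides of 0 in each list except the 9p24 neighbours in the TRIM28 knockdown, where 5 rose and 0 fell.

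The neighbours of CD274 on chromosome arm 9p24 were counted to set CD274 beside its surroundings. Of 19 genes, 5 of 12 tested rose and 3 fell in the FOXA1 knockdown (median 0.07), and 5 of 13 rose and 0 fell in the TRIM28 knockdown (median 0.41), or 6 and 2 without its replicate 3 (median 0.20). RIC1, a guanine nucleotide exchange factor of Golgi traffic, averaged 114 ± 7.7 CPM in the FOXA1 knockdown and 31.8 ± 3.5 CPM in its control (1.83, adjusted p = 7.64e-18), and 62.4 ± 14 CPM in the TRIM28 knockdown and 35.1 ± 0.77 CPM in its control (0.83, adjusted p = 0.0034, and 0.63 without replicate 3). JAK2, the kinase of interferon gamma receptor signalling, averaged 24.1 ± 0.45 CPM in the FOXA1 knockdown and 13.9 ± 1.1 CPM in its control (0.78, adjusted p = 3.39e-07). It rose by 0.62 in the TRIM28 knockdown (adjusted p = 0.012), a call lost without replicate 1 or 2 of the control (adjusted p up to 0.065). RANBP6, an importin, rose by 0.69 in the FOXA1 knockdown and by 0.52 in the TRIM28 knockdown, where the call was lost without replicate 1 or 2 of the control (adjusted p up to 0.067), and by 0.61 without replicate 3 of that knockdown. UHRF2, a ubiquitin ligase of chromatin, fell by 0.38 after FOXA1 knockdown. After TRIM28 knockdown CDC37L1, an HSP90 co-chaperone, rose by 0.70 (adjusted p = 0.00094), or 0.71 without replicate 3, and KIAA2026 by 0.41, or 0.38 without replicate 3, a call lost without replicate 1 or 2 of the control (adjusted p up to 0.070). After FOXA1 knockdown CDC37L1 rose by 0.40 (adjusted p = 0.00017) and KIAA2026 by 0.19 (adjusted p = 0.036). That call for KIAA2026 was lost without replicate 1 or 2 of the control or replicate 2 of the knockdown (adjusted p up to 0.18).

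The genes whose profile over the 12 libraries was most like that of each gene were named by the root mean square difference of centred log2(CPM + 0.5) values, a description with no test over libraries that share knockdown and depth. For HLA-B these were DCTN5 (0.069) and KLHL5 (0.074), for HLA-C TMEM131L (0.038) and OSTF1 (0.052), for HLA-E PPP4R3A (0.058) and NPLOC4 (0.062), and for B2M ENSA (0.044) and NR1H2 (0.050). For TAP1 they were GHR (0.092) and RAPGEF2 (0.094), and for ERAP1 PBXIP1 (0.128) and NXPE3 (0.130). The low genes had larger differences: RADX (0.194) and RNASE1 (0.214) for HLA-F, KIF7 (0.222) and CDC42P6 (0.247) for NLRC5, and CHN2 (0.314) and CAPN6 (0.315) for CD274. Such a difference can grow with the spread of the gene's own profile. That spread was 0.331 for HLA-F, 0.6 for NLRC5 and 0.859 for CD274. It ran from 0.095 (B2M) to 0.491 (ERAP1) for the rest, so the differences do not rank how close the matches were. None of these 18 matches is another of the 9 genes.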

How the data were processed

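Per-symbol raw counts were deposited by the authors in a table for each knockdown with its control, and FPKM values for all 12 libraries. Coordinates are on GRCh38 (hg38), as the submitters' processing notes name it. Aligner, counter, strand setting and annotation were not given in the sources used here. Checked against the counts, the deposited FPKM equalled the read count over 1 gene length and the library total within 0.001 for all 33045 genes that allowed it. Each table has 62710 lines for 60835 symbols, and a symbol on several lines was used once. Value columns without a sample numbered 0. Titles gave the control groups and treatment labels the knockdown groups; some genotype labels name other genes and were not used.

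Genes were tested over each whole table with edgeR 4.0.16 in R 4.3.3 (TMM scaling, filterByExpr with a minimum count of 10 and minimum total of 15, robust quasi-likelihood F-tests, two-sided, Benjamini-Hochberg threshold 0.05), on the 6 libraries of each pair, and on all 12 for the difference of effects. CPM values were scaled over all 12 libraries. The p-values measure the spread between the 3 replicates. Fits were tested on simulated counts. Alternatives were DESeq2 1.42.0, other scaling, no filter, a minimum fold of 1.2, a replicate block, a joint fit, summed heavy chains and leaving out each library. The genes and lists were chosen with earlier results of these data known. Named were the 9 genes, FOXA1 and TRIM28, up to 4 called genes of smallest p per list and knockdown, and the 2 most alike genes; some genes this would name are not reported here. Library totals lay between 12256092 and 15152890 counts; a gene was tested where at least 3 libraries of a comparison reached about 10 counts, whatever the others held. Promoters are from RefSeq (GRCh38.p14).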

Additional observations from a re-analysis of the deposited data

Results flagged for a closer look

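The effects of the FOXA1 and TRIM28 knockdowns, each over its own control, differed for 8 of the pathway genes named above when the difference itself was tested by edgeR over all 12 libraries. The FOXA1 effect minus the TRIM28 effect, on the log2 scale, was 0.41 for SPPL2A (SE 0.09, adjusted p = 0.0074), 0.44 for CALR (SE 0.09, adjusted p = 0.0029) and 0.55 for THOP1 (SE 0.13, adjusted p = 0.010) among genes of peptide supply and loading. Among regulators it was -0.41 for MYC (SE 0.09, adjusted p = 0.0077) and 0.44 for IFNGR1 (SE 0.11, adjusted p = 0.017). Among partners of PD-L1 it was 0.61 for B4GALT1 (SE 0.11, adjusted p = 0.0013) and -0.33 for CMTM4 (SE 0.09, adjusted p = 0.031). RIC1, the neighbour of CD274, had the largest, 1.01 (SE 0.18, adjusted p = 0.0020). These genes had been named for a small p in at least 1 of the knockdowns, so their number is no result about the pathway. Over all 15921 genes tested 10.6% were called for this difference.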

How the results depend on the processing

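Against 7840 genes called in the FOXA1 knockdown, a minimum fold of 1.2 called 4305. In the TRIM28 knockdown 3993 became 1625 at that minimum and between 1817 (without replicate 2 of the control; 2019 and 2154 without its replicates 1 and 3, 2488 without replicate 2 of the knockdown) and 6966 (without replicate 3 of the knockdown), and without a filter 5 of the 9 genes rose, TAP1 (adjusted p = 0.0022) and CD274 (0.039) joining the 3, while 2692 of all 35253 genes then tested rose and 2180 fell. For the difference of effects 1683 became 708 at the minimum fold and between 1176 and 3528 (without replicate 3 of the TRIM28 knockdown) when 1 library was left out; the 9 genes gave between 0 and 1 call higher and between 0 and 1 lower, both calls without replicate 3 of the TRIM28 knockdown. Between the controls 8 genes were called without a filter and between 0 and 2 without 1 library. With library totals 63.4% of TRIM28 calls were rises, against 49.9% with TMM, and 40.0% of the difference calls were positive, against 56.6%. Signs turned for values that did not pass the test: HLA-F in the FOXA1 knockdown lay between -0.26 and 0.67 without 1 library, and B2M in the TRIM28 knockdown between -0.011 and 0.092. In the difference, HLA-E was -0.039 and B2M -0.012 with library totals, HLA-E lay between -0.023 and 0.079 and HLA-F between -0.50 and 0.44 without 1 library, and the summed heavy chains gave 0.029, where HLA-B and HLA-F alone were negative. The cause was not tested. Same-numbered replicates correlated between -0.09 and 0.11, and replicates of different number between -0.12 and 0.13. No pairing by number was seen, though correlations over 3 replicates per group cannot exclude it. A replicate block called 7997, 3846 and 1597 genes in the FOXA1 knockdown, the TRIM28 knockdown and their difference, and left 7, 3 and 0 of the 9 genes called. At this depth HLA-F, NLRC5 and CD274 rest on few counts.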
